A study of Homo sapiens with 18 samples.

Results

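The genes described here make, recycle or break down deoxynucleotides, or keep uracil out of DNA. They are RRM1, RRM2, TYMS, TK1, DCK, DUT, UNG, SAMHD1 and DCTPP1, 9 of the 18475 genes in the table, matched from symbol to Entrez identifier. The group was picked with UNG in view, the gene of deepest fall in irradiated H446 cells among well expressed genes, so the values of these genes in H446 cells are given as a description with no test. RNA-seq was performed on cultures of BEAS-2B, an immortalized bronchial epithelial cell line, A549, a non-small cell lung cancer line, and H446, a small cell lung cancer line. Each line had 3 control libraries and 3 libraries harvested 24 h after 10 Gy of X-rays, 18 libraries in all, with no harvest time given for the controls. All lines were grown in the same serum-supplemented medium, and every group is labelled wild type, with no other agent named. The study states that its experiments were repeated, but the labels do not say that the libraries of a group came from separate cultures, so every p measures only the spread between these libraries, which may be technical.

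Deoxynucleotides for DNA replication come from ribonucleotide reductase, which reduces ribonucleotides, and from salvage kinases, which recycle deoxynucleosides. Thymidylate synthase makes the thymidine nucleotide out of deoxyuridine monophosphate. Deoxyuridine triphosphate is removed by a dUTPase, because DNA polymerases insert it in place of thymidine triphosphate. Uracil that enters DNA, by insertion or by deamination of cytosine, is cut out by uracil DNA glycosylase and the base excision repair enzymes. Many of these genes are transcribed mainly in S phase and are known targets of the E2F transcription factors.

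The E2F strings in the promoters of these genes are shown because most of the group carry one. The 250 bases before each RefSeq start (GRCh38.p14) were searched on both strands for 4 strings that E2F factors are known to bind, namely TTCCCGC, its variant TTCGCGC, the related string TTGCCGC and the variant TTGGCGC. At least 1 of them was found in 7 of the 9 genes, all but SAMHD1 and DCTPP1, against 3541 of 27305 genes with a promoter in the same table and 10.9% of all promoter windows. That background holds more genes than the 18475 with values here, and it was not limited to expressed genes. It has 35116 windows, whereas the 9 genes have 15, and a gene with more starts has more places for a match. Each line below gives the string in capitals, or its reverse complement, with 10 bases on either side, written 5′ to 3′ on the strand of the gene.
UNG, upstream start, chr12:109097579-109097605 (+): cgcgggccgcTTGGCGCcaattgctga
UNG, downstream start, chr12:109098014-109098040 (+): ggggcccatgGCGCCAAtccgcgcgcc
UNG, downstream start, chr12:109098100-109098126 (+): gggaggttttTTGCCGCgaaaagacca
DUT, chr15:48332145-48332171 (+): ggcggggctgGCGGGAAatttcggttt
DUT, chr15:48332161-48332187 (+): aatttcggttTTGGCGCgctccctgcg
TYMS, chr18:657604-657630 (+): cgggacggccGCGGGAAaaggcgcgcg
RRM1, chr11:4094452-4094478 (+): aagaaaaacgTTCCCGCcggttaggtt
RRM2, chr2:10122366-10122392 (+): gggcccgcgcGCGCCAAggccgccgag
TK1, chr17:78187048-78187074 (-): agcggtcggcGCGGGAAccaggggctt
DCK, chr4:70993447-70993473 (+): ccggaacctcTTCCCGCgccctgcccg
DCK, chr4:70993551-70993577 (+): gagcgcgcacGCGGGAAcccgcgctgg

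The 9 genes have 15 RefSeq starts in the table, and the strings stand before some of them only. Both starts of UNG carry a string, the upstream one 8 to 2 bases before transcription begins. Only 1 of 4 starts of DUT, 1 of 2 of RRM2 and 1 of 2 of TK1 carry one, while TYMS, RRM1 and DCK have a single start. In TYMS the string lay 39 to 33 bases before the start, and in TK1 12 to 6 bases before the start that carries it. RRM1 and RRM2 carry theirs farther out, from 223 and 192 bases before such a start. Of other strings searched on both strands, CCAAT was found in 5 of the 9 genes against 37.0% of all genes, GGGCGG in 7 against 46.2%, and TTTGAA or TTTAAA, the strings of the cell cycle homology region, in 5 against 25.5%. A match describes the letters in the window and is not evidence that a factor binds there.

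The deposited values are treated as FPKM, a level scaled to transcript length and to the reads of the library, and the total per library was between 461255 and 529936. The values are no counts, so the depth of the libraries is unknown. The labels were checked against marker genes. KRT8, KRT18 and the mesenchymal marker VIM were expressed in all 3 lines, with 3 of 5 epithelial markers at a mean FPKM of at least 1 in each. The third was EPCAM in BEAS-2B and H446 cells (control means of 2.37 and 1.11) and CDH1 in A549 cells (7.05). EPCAM reached at most 0.60 in A549 cells, and CDH1 at most 0.54 in BEAS-2B and 0.74 in H446 cells. KRT5 had an FPKM of at most 0.03 in any library. The 4 alveolar and lung lineage markers summed to at most 0.76 FPKM in any library. In H446 cells, the line labelled small cell lung cancer, the neuroendocrine marker CHGA had an FPKM of at most 0.05 and SYP of at most 0.29 in any library, so both were near 0. In A549 cells, labelled non-small cell, they were higher, at 0.81 to 1.19 FPKM for CHGA and 1.65 to 2.13 for SYP. The library labelled BEAS-2B 10 Gy replicate 2 stood apart from its group: CDKN1A, the p53 target that arrests the cell cycle, reached an FPKM of 309.73, 102.24 and 487.79 in irradiated replicates 1, 2 and 3, against 79.93 to 86.36 in the controls.

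Differences are given as log2(FPKM + 1) after irradiation minus control, with a standard error and a Benjamini-Hochberg adjusted p over all genes tested in that line from limma, and a gene was called at an adjusted p under 0.05. In A549 cells 7 of the 9 genes were called, against 51.7% of the 11993 genes tested. TYMS and SAMHD1 rose, while RRM2, DUT, UNG, TK1 and DCTPP1 fell. By direction, 2 of 9 were higher against a background of 25.3%, and 5 of 9 were lower against 26.4%. In BEAS-2B cells 0 of the 9 were called by limma (0 at an unadjusted p under 0.05), as were 0% of the 11734 genes tested, of which 1446 had an unadjusted p under 0.05. In H446 cells all irradiated libraries lay below all controls in 6 of the 9 genes (UNG, DCTPP1, TYMS, DUT, RRM2 and RRM1), where 29.9% of the 11479 genes tested did so. Since RNA came from whole cultures, fewer cells expressing a gene and less RNA per cell cannot be told apart.

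**Figure D1:**
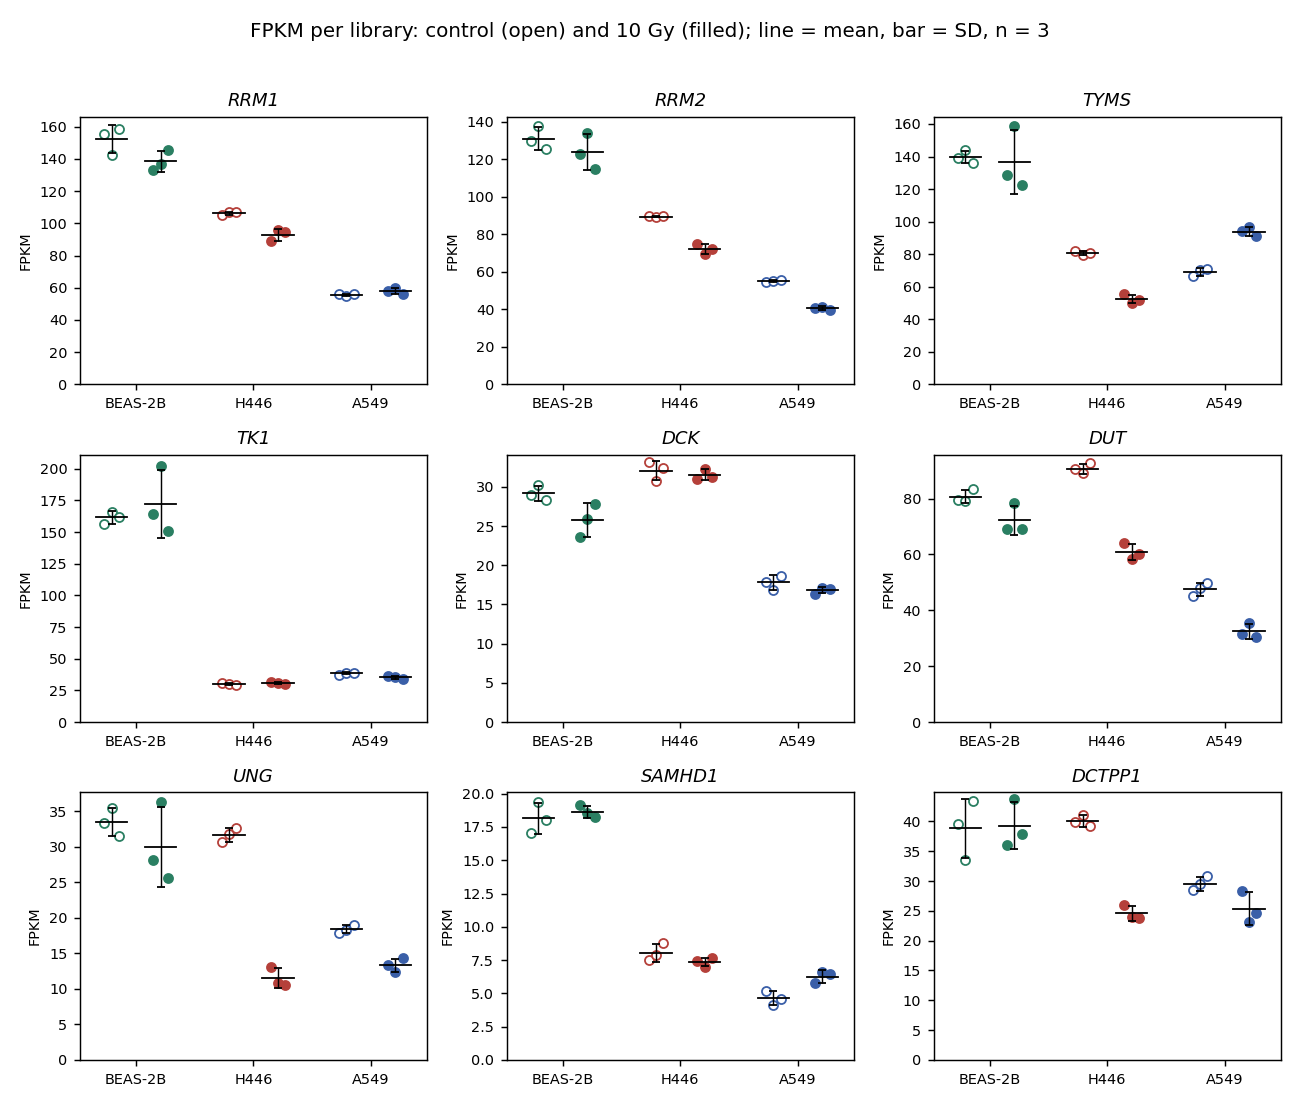
FPKM of the 9 genes (y axis, linear from 0) in each library of BEAS-2B, H446 and A549 cells (x axis), with controls as open and 10 Gy libraries as filled circles; lines are means and bars SD over 3 libraries. UNG has means of 31.7 and 11.5 in H446 cells, TYMS is higher after irradiation in A549 and lower in H446 cells, and the widest irradiated spread in BEAS-2B cells is that of TK1.

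UNG encodes uracil DNA glycosylase, the main enzyme that removes uracil from replicating DNA, in a nuclear and a mitochondrial form that the table does not separate. It lies on chromosome 12 from 109097597 to 109110992 (GRCh38.p14). In H446 cells its FPKM was 30.68, 31.81 and 32.65 in control and 13.12, 10.85 and 10.56 in irradiated libraries. The irradiated libraries were far below every control, and the highest of them was less than the lowest control by more than the range within either group. The means were 31.7 ± 0.989 and 11.5 ± 1.40 (SD, n = 3 each), a ratio of control to irradiated of 2.76 and a log2 difference of -1.39 (standard error 0.07). Among the 6779 genes whose mean FPKM reached 10 this was the deepest fall in H446 cells, followed by MCM5 (-1.33), a subunit of the replicative helicase, and CCNE2 (-1.20), a cyclin of the entry into S phase. Over all 11479 genes tested it held rank 2.

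In A549 cells UNG had an FPKM of 17.92, 18.34 and 19.03 in control and 13.29, 12.41 and 14.28 in irradiated libraries. The groups did not overlap, and UNG fell by 0.44 on the log2 scale (standard error 0.06, adjusted p = 4.4e-05, limma). In BEAS-2B cells it had 33.39, 35.49 and 31.52 in control and 28.08, 36.35 and 25.62 in irradiated libraries. Irradiated replicate 2 was above all controls and the other irradiated libraries below all of them, so the groups overlapped. UNG differed there by -0.17 (standard error 0.12, adjusted p = 0.557), by -0.31 when irradiated replicate 2 was left out (standard error 0.09, adjusted p = 0.134) and by -0.06 when replicate 3 was (adjusted p = 0.727).

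DUT encodes the dUTPase, which hydrolyses deoxyuridine triphosphate to the monophosphate that thymidylate synthase uses. It lies on chromosome 15 from 48331095 to 48343373. Its FPKM in H446 cells was 90.56, 89.08 and 92.62 in control and 64.14, 58.28 and 60.24 in irradiated libraries, a log2 difference of -0.57 (standard error 0.04). In A549 cells it was 45.11, 47.83 and 49.84 in control and 31.47, 35.62 and 30.45 in irradiated libraries. The irradiated libraries were below all controls in both cancer lines. In A549 cells DUT fell by 0.54 (standard error 0.06, adjusted p = 1.32e-05, limma), the deepest fall of the 9 genes in that line. In BEAS-2B cells DUT had 79.35, 79.31 and 83.42 in control and 69.15, 78.34 and 69.26 in irradiated libraries. All 3 irradiated libraries lay below the controls, replicate 2 by less than 1 FPKM, but the log2 difference of -0.16 was not called (standard error 0.08, adjusted p = 0.421). Without that library it was -0.22 (standard error 0.08, adjusted p = 0.25).

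TYMS encodes thymidylate synthase, the target of fluoropyrimidine drugs, and moved in opposite directions in the cancer lines. It lies on chromosome 18 from 657653 to 673578. In A549 cells its FPKM was 66.49, 70.21 and 71.04 in control and 94.11, 96.41 and 91.17 in irradiated libraries. Every irradiated library was higher than every control, and TYMS rose by 0.43 (standard error 0.04, adjusted p = 3.2e-06, limma). In H446 cells the values were 82.16, 79.26 and 80.74 in control and 55.29, 50.13 and 51.56 in irradiated libraries, a log2 difference of -0.62 (standard error 0.04). Here every irradiated library was lower than every control. In BEAS-2B cells TYMS had 138.84, 143.78 and 136.18 in control and 128.38, 158.95 and 122.59 in irradiated libraries, so that replicate 2 was above and the others below the controls. Its log2 difference there was -0.04 (standard error 0.10, adjusted p = 0.879), and -0.15 without replicate 2 (standard error 0.08, adjusted p = 0.504). TYMS shares 967 exon bases with ENOSF1 on the opposite strand, and whether reads were assigned by strand is not stated. The mean FPKM of ENOSF1 was 13.4 in A549 controls and 12.04 after irradiation, and that of TYMSOS, which shares 183 exon bases on the opposite strand, was 3.87 and 8.02, with all irradiated libraries above all controls. In H446 cells ENOSF1 had means of 27.1 and 20.45 and TYMSOS of 5.20 and 4.30, with all irradiated libraries below all controls in both. The part of these overlaps in the values of TYMS was not tested.

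RRM1 encodes the large catalytic subunit of ribonucleotide reductase and lies on chromosome 11 from 4094685 to 4138932. In H446 cells its FPKM was 105.33, 106.78 and 106.90 in control and 88.73, 95.88 and 94.34 in irradiated libraries, a log2 difference of -0.19 (standard error 0.04). In A549 cells it was 56.24, 54.96 and 55.95 in control and 57.71, 59.76 and 56.41 in irradiated libraries. These A549 groups were apart only narrowly, at 56.24 and 56.41, and the difference of 0.06 was not called (standard error 0.04, adjusted p = 0.234, limma). Under quantile normalization it was 0.10, with an adjusted p of 0.0489. In BEAS-2B cells RRM1 had 155.50, 142.49 and 158.77 in control and 133.08, 137.14 and 145.61 in irradiated libraries. The groups overlapped, with a difference of -0.13 (standard error 0.08, adjusted p = 0.485).

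RRM2 encodes the small subunit, whose level follows S phase and limits the activity of the enzyme in cycling cells. It lies on chromosome 2 from 10122568 to 10211010. In A549 cells its FPKM was 54.72, 55.06 and 55.84 in control and 40.85, 41.45 and 39.40 in irradiated libraries. The irradiated libraries were well below the controls, and RRM2 fell by 0.44 (standard error 0.04, adjusted p = 2.03e-06, limma). In H446 cells the values were 89.54, 89.12 and 89.66 in control and 74.94, 69.36 and 72.10 in irradiated libraries, a log2 difference of -0.31 (standard error 0.04). In BEAS-2B cells they were 129.45, 137.70 and 125.57 in control and 122.99, 134.08 and 114.70 in irradiated libraries. Only replicates 1 and 3 were below the controls there, and the difference of -0.08 was not called (standard error 0.08, adjusted p = 0.685).

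RRM2B, the p53-induced paralog of RRM2 that can replace it outside S phase, is not one of the 9 genes and is given beside them. In A549 cells its FPKM was 29.23, 28.12 and 28.63 in control and 55.72, 56.55 and 57.50 in irradiated libraries, a rise of 0.96 (standard error 0.04, adjusted p = 2.84e-09, limma). RRM2B and RRM2 thus moved in opposite directions in A549 cells, where the controls held more RRM2 and the irradiated cells more RRM2B, per length. In H446 cells RRM2B had 6.95, 6.98 and 6.29 in control and 7.22, 7.71 and 7.52 in irradiated libraries, so that RRM2 stayed well above it in every library. In BEAS-2B cells it had 18.70, 17.23 and 19.37 in control and 28.89, 15.30 and 38.49 in irradiated libraries. Replicate 2 was below all controls and the others above them, with a difference of 0.47 over all libraries (standard error 0.24, adjusted p = 0.455) and of 0.82 without replicate 2 (standard error 0.11, adjusted p = 0.00414, limma).

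TK1 encodes the cytosolic thymidine kinase, an enzyme of thymidine salvage that is made in S phase. It lies on chromosome 17 from 78174079 to 78187204. In A549 cells its FPKM was 37.55, 38.42 and 39.13 in control and 36.53, 35.63 and 34.32 in irradiated libraries, a fall of 0.11 (standard error 0.04, adjusted p = 0.039, limma). The groups were apart but close, and the call was lost when any 1 of 5 of the 6 A549 libraries was left out (all but irradiated replicate 1), with adjusted p up to 0.123. Over all the alternative runs, the call was kept in 5 of 16. In H446 cells TK1 had 30.77, 29.99 and 29.27 in control and 31.90, 30.69 and 30.22 in irradiated libraries, which overlap. In BEAS-2B cells it had 156.45, 166.13 and 162.26 in control and 164.36, 202.55 and 150.54 in irradiated libraries. Replicate 2 was the highest of the 6 libraries and replicate 3 the lowest, and the difference was 0.08 (standard error 0.10, adjusted p = 0.746).

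DCK encodes deoxycytidine kinase, which also activates nucleoside drugs such as gemcitabine and cytarabine, and lies on chromosome 4 from 70993649 to 71030914. In A549 cells its FPKM was 17.90, 16.83 and 18.66 in control and 16.38, 17.06 and 16.98 in irradiated libraries, with a difference of -0.08 (standard error 0.05, adjusted p = 0.215, limma). In H446 cells it was 33.11, 30.76 and 32.34 in control and 31.03, 32.32 and 31.20 in irradiated libraries, a log2 difference of -0.02 (standard error 0.04). The groups overlapped in both cancer lines. In BEAS-2B cells DCK had 28.98, 30.19 and 28.32 in control and 23.59, 25.92 and 27.87 in irradiated libraries. All irradiated libraries were below all controls, as they were for DUT but for none of the other 7 genes, against 8.87% of all genes tested in that line. The difference of -0.17 was not called (standard error 0.08, adjusted p = 0.413).

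SAMHD1 encodes the triphosphohydrolase that breaks deoxynucleoside triphosphates down and is known for restricting retroviruses in resting cells. It lies on chromosome 20 from 36889773 to 36951708. In A549 cells its FPKM was 5.21, 4.14 and 4.59 in control and 5.75, 6.60 and 6.44 in irradiated libraries. All irradiated libraries were higher than the controls, and SAMHD1 rose by 0.37 (standard error 0.08, adjusted p = 0.00222, limma). In H446 cells it had 7.48, 7.88 and 8.76 in control and 7.44, 6.99 and 7.63 in irradiated libraries, a log2 difference of -0.11 (standard error 0.07). In BEAS-2B cells it had 17.03, 19.34 and 18.04 in control and 19.15, 18.53 and 18.28 in irradiated libraries, with a difference of 0.04 (standard error 0.08, adjusted p = 0.836). In H446 and BEAS-2B cells the groups overlapped. TLDC2, which shares 1159 exon bases with it on the opposite strand, had an FPKM of at most 0.47 in any library.

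DCTPP1 encodes a pyrophosphatase that clears modified deoxycytidine triphosphates from the pool, and lies on chromosome 16 from 30423615 to 30430030. In H446 cells its FPKM was 39.91, 41.08 and 39.22 in control and 26.03, 23.99 and 23.80 in irradiated libraries, a log2 difference of -0.68 (standard error 0.04), the deepest of the 9 genes after UNG. In A549 cells it was 28.44, 29.53 and 30.77 in control and 28.41, 23.09 and 24.59 in irradiated libraries, a fall of 0.22 (standard error 0.07, adjusted p = 0.0144, limma). The groups in A549 cells were apart only narrowly, since irradiated replicate 1 was just under the lowest control. The call was lost without irradiated replicate 2 (adjusted p = 0.061) and without control replicate 3 (adjusted p = 0.0512). In BEAS-2B cells DCTPP1 had 39.64, 33.58 and 43.39 in control and 36.13, 43.76 and 37.96 in irradiated libraries, which overlap, with a difference of 0.02 (standard error 0.11, adjusted p = 0.956). How reads of overlapping exons were counted is not stated. The exon overlaps not yet given are 63 bases of RRM1 with the antisense RRM1-AS1, 666 bases of DCTPP1 with ZNF771 (at most 2.77 FPKM), 533 of DUT with an antisense RNA, 199 of DCK with MOB1B and 1077 of RRM2 with another protein-coding gene model.

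**Figure D2:**
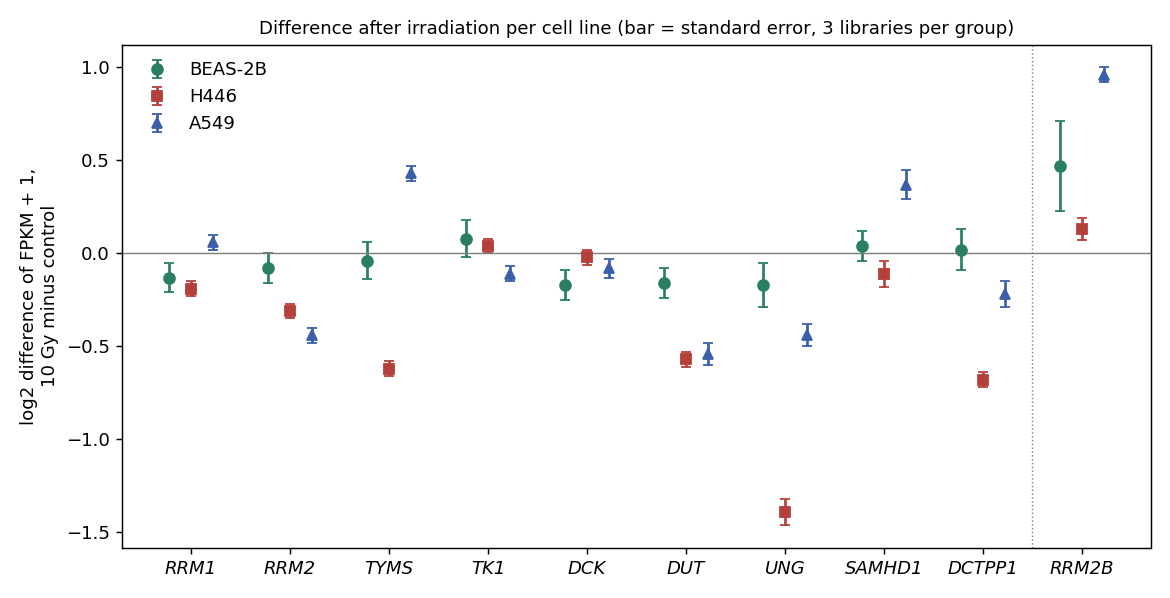
Log2 difference of FPKM + 1 after irradiation minus control (y axis) for the 9 genes and the paralog RRM2B (x axis) in BEAS-2B (circles), H446 (squares) and A549 cells (triangles); bars are standard errors from 3 libraries per group. UNG lies at -1.39 in H446 cells, TYMS at 0.43 in A549 and -0.62 in H446 cells, and 7 of the 9 A549 points passed the threshold.

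Over the 9 genes the median log2 difference was -0.31 in H446 cells, against -0.03 over all genes tested in that line. In A549 cells the median was -0.11 against -0.004, and in BEAS-2B cells -0.08 against 0.002. In rank of fall among all genes tested in H446 cells, DCTPP1 held 59, TYMS 83 and DUT 112, RRM2 950, RRM1 2297, SAMHD1 3821, DCK 5986 and TK1 7592, behind UNG at 2. In H446 cells a trend on transcript GC content separated the groups: its Spearman correlation with the deviation of a library from the line mean was 0.35 to 0.46 in controls and -0.50 to -0.11 in irradiated libraries. With that trend removed, the H446 differences were -1.34 for UNG, -0.58 for TYMS, -0.59 for DUT, -0.58 for DCTPP1, -0.31 for RRM2 and -0.22 for RRM1. TK1, whose transcript has the highest GC content of the 9 (62.8%), moved from 0.04 to 0.23, and DCK, with the lowest (38.8%), from -0.02 to -0.09.

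In BEAS-2B cells the irradiated libraries were compared one by one with the mean of the controls. UNG lay at -0.24, 0.12 and -0.37 in irradiated replicates 1, 2 and 3, TYMS at -0.12, 0.19 and -0.19, and DUT at -0.22, -0.04 and -0.22. For 5 of the 9 genes (RRM2, TYMS, DCK, DUT and UNG) replicates 1 and 3 were both below all controls, against 13.2% of the 11734 genes tested, in a pair of libraries chosen after replicate 2 was seen to stand apart. Replicate 2 was the highest irradiated library for 6 of the 9, against 35.7% of all genes tested. The median over the 9 genes was -0.12, 0.04 and -0.10 in replicates 1, 2 and 3, while CDKN1A lay at 1.87, 0.28 and 2.52. Without replicate 2 the background rose to 1.99% of 11680 genes called by limma, but 0 of the 9 genes were called, with UNG and DUT (2 of 9) at an unadjusted p under 0.05, as were 11.8% of all genes tested. On transcript GC content, the Spearman correlation of a library's deviation from the line mean was 0.45, 0.70 and -0.31 in irradiated replicates 1, 2 and 3 and -0.63, 0.01 and -0.38 in the controls, so replicate 2 was also the farthest from 0. With that trend removed the differences were -0.21 for UNG, -0.13 for DUT and -0.05 for TK1.

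**Figure D3:**
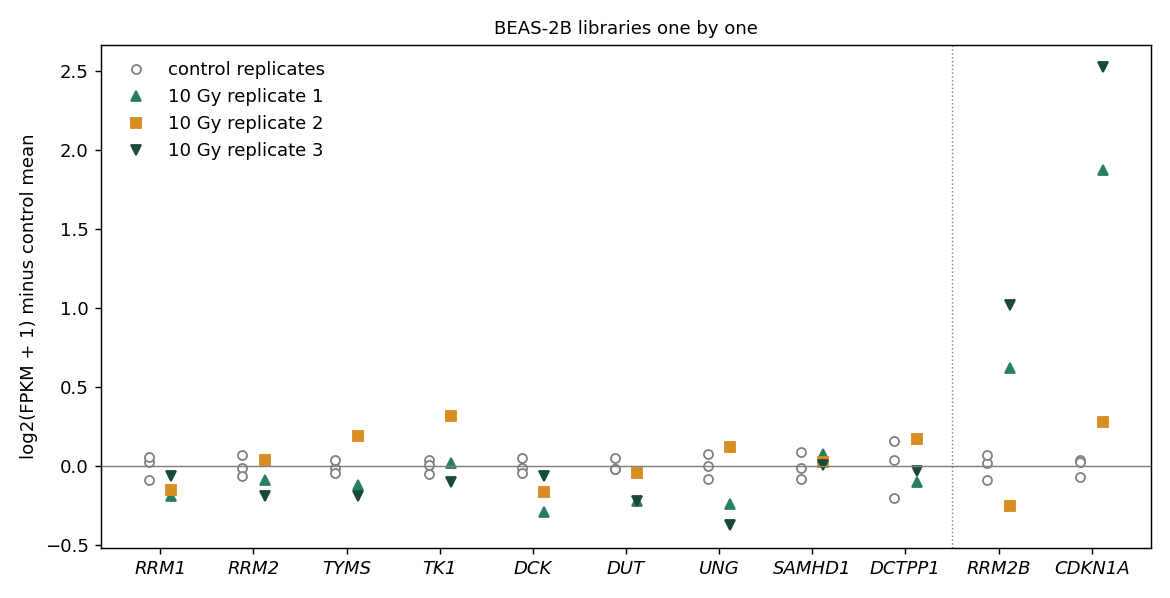
Difference of log2(FPKM + 1) from the control mean (y axis) in each BEAS-2B library, for the 9 genes, RRM2B and CDKN1A (x axis); open circles are controls, triangles 10 Gy replicates 1 (up) and 3 (down), and squares 10 Gy replicate 2. For UNG, replicates 1 and 3 lie at -0.24 and -0.37 and replicate 2 at 0.12, whereas for CDKN1A replicate 2 lies at 0.28, below 1.87 and 2.52.

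Whether the response differed between A549 and BEAS-2B cells was tested in 1 fit of their 12 libraries, which share the control samples of the comparisons above. Of the 9 genes 4 differed, against 25.7% of the 12717 genes tested. The response in A549 cells was higher for TYMS by 0.47 (standard error 0.11, adjusted p = 0.00711, limma). It was lower for RRM2 by 0.36 on the log2 scale, a difference of -0.36 (standard error 0.08, adjusted p = 0.00779), and for DUT, with a difference of -0.38 (standard error 0.10, adjusted p = 0.0119). For SAMHD1 it was higher by 0.33 (standard error 0.11, adjusted p = 0.0424), a call that was lost when any 1 of 9 of the 12 libraries was left out (all but replicate 1 of the A549 controls, the irradiated A549 cells and the BEAS-2B controls), with adjusted p between 0.0544 and 0.109. Without BEAS-2B 10 Gy replicate 2 the values were 0.59 for TYMS, -0.30 for RRM2, -0.32 for DUT and 0.32 for SAMHD1.

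UNG did not pass this test, with a difference in response of -0.28 (standard error 0.14, adjusted p = 0.168). Leaving out BEAS-2B 10 Gy replicate 2 gave -0.13 (adjusted p = 0.337), and leaving out replicate 3 gave -0.38 (adjusted p = 0.0319). RRM1 had a difference of 0.19 (adjusted p = 0.0862), which was called at 0.23 without that last library, at 0.24 without BEAS-2B control replicate 2, at 0.24 under quantile normalization and at 0.19 in 1 fit of all 18 libraries. TK1, at -0.19 (adjusted p = 0.248), was -0.07 without BEAS-2B 10 Gy replicate 2 (adjusted p = 0.531) and was called at -0.28 without replicate 3. For DCK and DCTPP1 the differences were 0.10 (standard error 0.09) and -0.24 (standard error 0.14), and neither was called. A p above the threshold does not show that the lines responded alike.

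Before irradiation, all 9 genes were called lower in A549 than in BEAS-2B cells (limma on the 6 control libraries). The background is high in this comparison, with 84.4% of 12467 genes called and 46.3% called lower in A549 cells. TK1 was the farthest apart, with a mean FPKM of 162 ± 4.87 in BEAS-2B and 38.4 ± 0.791 in A549 cells (SD, n = 3 each), a ratio of 4.21 and a log2 difference of -2.05 (standard error 0.05, adjusted p = 1.33e-11). SAMHD1 followed, at 18.1 ± 1.16 and 4.65 ± 0.537, a ratio of 3.90. DCTPP1 was the closest, at 38.9 ± 4.95 and 29.6 ± 1.17 (log2 difference -0.38, standard error 0.08, adjusted p = 0.00126). The median log2 difference over the 9 genes was -1.001, against -0.08 over all genes tested.

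The control levels of H446 cells are described without a test. BEAS-2B cells were highest, H446 cells next and A549 cells lowest for RRM1, RRM2, TYMS, UNG and SAMHD1. For DCK, DUT and DCTPP1 H446 cells came first, BEAS-2B cells next and A549 cells last. TK1 was lowest in H446 cells, where its mean of 30.0 ± 0.750 FPKM lay under the 38.4 of A549 cells. These are orders of the means, and the libraries of BEAS-2B and H446 cells overlapped for UNG and for DCTPP1. Between the A549 and BEAS-2B controls 84.4% of all genes tested were called, so a difference between lines is common.

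The genes around the 9 were taken from lists of nucleotide synthesis, salvage, pool cleansing, uracil repair, cytidine deaminase, transporter and E2F genes, 85 in all, none of them among the 9. In A549 cells 45 of the 77 tested were called, 10 higher and 35 lower, which is 58.4% against the background of 51.7%. Their median log2 difference was -0.11. The deepest falls were those of CTPS1 (-1.25, adjusted p = 4.05e-10), which makes cytidine triphosphate, UPP1 (-1.14, adjusted p = 2.02e-09), a uridine phosphorylase, and MTHFD2 (-0.99, adjusted p = 2.23e-09), a mitochondrial folate enzyme. The steepest rises were those of PCNA (1.38, adjusted p = 6.29e-10), the sliding clamp of replication and repair that p53 also induces, APOBEC3C (0.98, adjusted p = 7.69e-09), a cytidine deaminase, and RRM2B, given above. The deaminase genes have near-identical copies, so reads may be split between them.

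By list in A549 cells the counts stand against 26.4% of all genes called lower and 25.3% called higher, or 51.7% in either direction. Of the lists, purine synthesis (53.8% called), the folate and thymidylate cycle (50%), nucleotide kinases (50%) and base excision repair (54.5%) were near that share. In detail, 10 of the 17 tested genes of salvage and catabolism fell and 2 rose, and 6 of the 13 genes of de novo purine synthesis fell and 1 rose. Of 5 pyrimidine synthesis genes 2 fell, and of 8 folate and thymidylate cycle genes 4 fell. Of the 11 genes of the base excision repair of uracil 2 rose (PCNA and LIG1, the latter named after its values were seen) and 4 fell. The rise of LIG1 was 0.17 (adjusted p = 0.0325, limma), with groups that overlapped. Of the 3 deaminase genes tested 2 rose. Of 8 E2F genes 5 fell (E2F1, E2F4, E2F5, E2F6 and E2F8, between -0.63 and -0.17) and 1 rose (E2F7, 0.69), named after their values were seen. Activators and repressors of the family were both among those that fell. Of 6 nucleotide kinases 3 fell, of 3 pool cleansing genes 1 fell and 1 rose, and the 2 nucleoside transporters tested, each with a log2 difference of -0.04, did not pass.

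In BEAS-2B cells 0 of the 78 pathway genes tested were called by limma, with 7 at an unadjusted p under 0.05, beside the 1446 of 11734 over all genes. Without 10 Gy replicate 2, where 1.99% of all genes were called, there were 3: RRM2B, E2F7 (0.63, adjusted p = 0.0023) and APOBEC3C (0.46, adjusted p = 0.033), named after their values were seen except RRM2B. In H446 cells the same lists are described, since the pathway was picked on that contrast. All irradiated libraries lay below all controls in 48 of 78 genes and above them in 7, against backgrounds of 29.9% and 20.4%. At limma's threshold 47 of the 78 would be called beside 38.4% of all genes, and nothing is read from either count. Their median was -0.15. E2F1 had a mean FPKM of 36.0 in the H446 controls and 16.9 after irradiation, PCNA of 154 and 84.6, and the deoxyribonucleotidase NT5M of 2.46 and 1.15. Higher after irradiation were APOBEC3B (9.49 and 17.6), E2F5 (6.85 and 8.45) and the ectonucleotidase NT5E (46.3 and 53.6), each with all irradiated libraries above all controls.

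**Figure D4:**
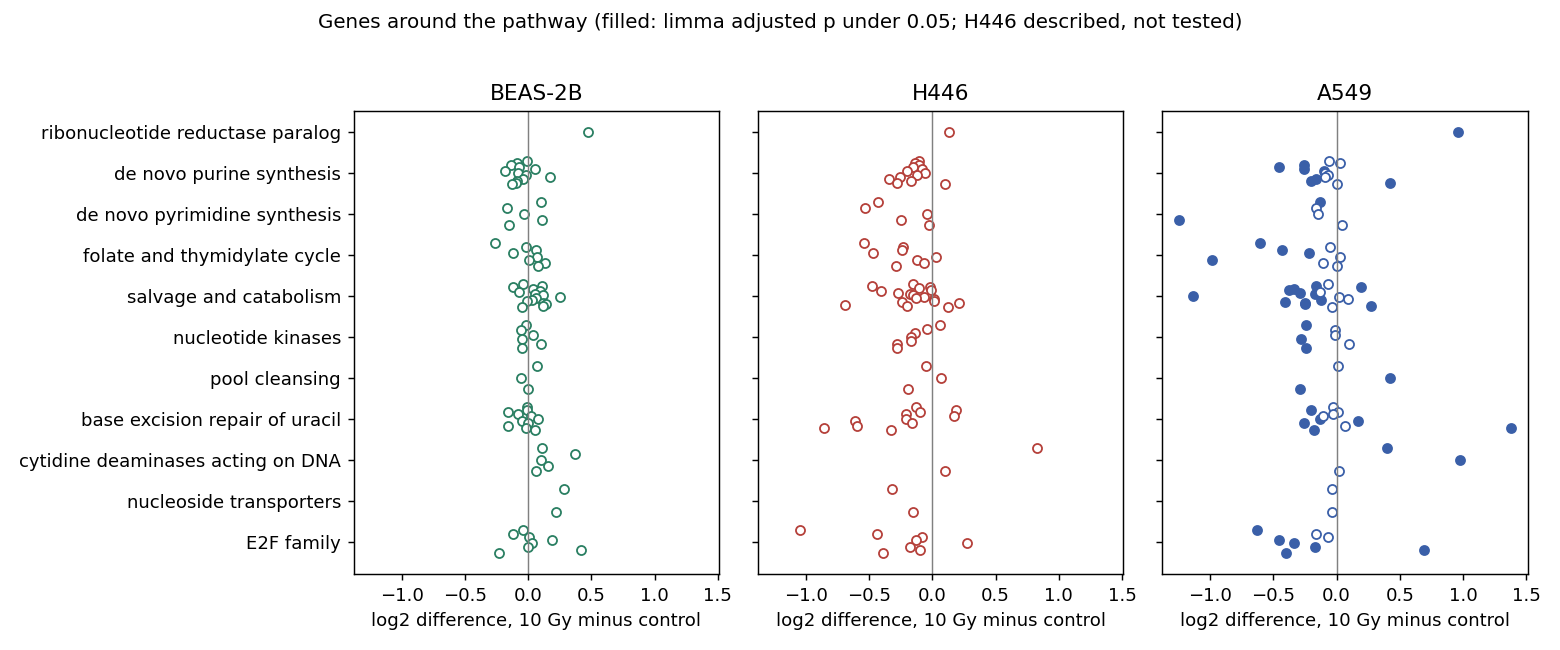
Log2 difference after irradiation (x axis) of the pathway genes tested, by list (y axis), in BEAS-2B, H446 and A549 cells; each circle is 1 gene, filled at a limma adjusted p under 0.05 except in H446 cells, which are described and drawn open. No circle is filled in BEAS-2B cells and 45 are in A549 cells, and PCNA lies at 1.38 in A549 and -0.86 in H446 cells.

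The genes whose pattern was most like that of UNG were found as the Pearson correlation of log2(FPKM + 1), centred on the mean of each line, over the 18 libraries, for the 10091 genes that reached an FPKM of 1 in all of them. They were MCM3 (0.98), TCF19 (0.979), MCM4 (0.972), MCM5 (0.966) and ICMT (0.958). These values rest in large part on the H446 libraries, which the choice of UNG used, and all genes share the depth and normalization of each library. The log2 differences of MCM3 were -0.87 in H446, -0.28 in A549 and -0.15 in BEAS-2B cells. Among the other 8 genes of the group the correlation with UNG was 0.905 for DCTPP1 (rank 48), 0.866 for DUT (rank 132) and 0.796 for RRM2 (rank 334). It was 0.623 for TYMS, 0.538 for RRM1, 0.227 for DCK, 0.119 for TK1 and -0.006 for SAMHD1.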

How the data were processed

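Poly(A) RNA of 18 libraries was sequenced on a BGISEQ-500, single-end, with a read length of 50 bases. The authors deposited 1 table with a normalized value per gene and library, treated here as FPKM. The unit was inferred, since no source used here names it: the values have 2 decimals and their totals differ between libraries. The submitters' processing notes name HISAT2 2.0.4, Bowtie2 2.2.5, RSEM 1.2.12 and hg38. Whether reads were assigned by strand is not stated. Reads of near-identical genes may be split in ways the values do not show, and no counting interval can be given.

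Libraries were grouped by line and treatment from their labels. Of 18475 Entrez identifiers 18181 matched RefSeq (GRCh38.p14), which also gave positions and promoter sequences. No more than 2.97% of the values above 0 were equal between replicates of a group. Genes that reached an FPKM of 1 in 3 or more of the libraries fitted were tested on log2(FPKM + 1), which understates changes of low genes, with limma 3.58.1 (eBayes with a trend) in R 4.3.3. P-values were adjusted by Benjamini-Hochberg over all genes tested. The difference in response used the 12 libraries of A549 and BEAS-2B cells and genes that passed in at least 1 line. All 9 genes passed in every comparison. An exact permutation test of 3 against 3 libraries cannot give a p below 0.10, so none is reported.

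The genes, the lists and the tests were chosen with earlier results of these data known, so no pattern is independent of them. Named were the 9 genes, RRM2B and CDKN1A, the 3 largest rises and falls among called pathway genes whose groups did not overlap and whose mean FPKM was at least 1, per line, and the 5 genes most correlated with UNG, with exceptions marked where they appear. Some genes within these lists are not reported here. Alternatives were a pseudocount of 0.1, no filter, a stricter filter, quantile normalization, equal totals, no trend, removal of a loess trend (span 0.5) on transcript GC content for the 17848 genes with a value (longest GENCODE 29 transcript), each library left out, an adjusted p under 0.01, a block on the replicate number and a joint fit of all 18 libraries. The fits were tested on simulated data. Tables were made with pandas 2.3.3 and numpy 2.4.6 under Python 3.11.15, and figures with matplotlib 3.10.9.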

Additional observations from a re-analysis of the deposited data

Results flagged for a closer look

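The difference in response between A549 and BEAS-2B cells passed limma's test for 4 of the 9 genes, against 25.7% of all genes tested. It was -0.36 for RRM2, 0.47 for TYMS, -0.38 for DUT and 0.33 for SAMHD1, as A549 minus BEAS-2B. The call of SAMHD1 was kept in only 8 of 22 alternative runs.

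In other cases every irradiated library lay on one side of the control mean in one line and on the other side in another line. Those that involve H446 cells were not tested. As the response in A549 minus that in H446 cells they were 1.05 for TYMS, 0.25 for RRM1, -0.15 for TK1 and 0.48 for SAMHD1. As the response in BEAS-2B minus that in H446 cells the difference was 0.15 for SAMHD1, whose groups overlapped in both of those lines. RRM1 also lay on opposite sides in A549 and BEAS-2B cells, and its tested difference of 0.19 was not called (adjusted p = 0.0862, limma).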

How the results depend on the processing

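No called value changed its sign under any alternative run. Of 621 alternatives for single genes with a test, 584 kept their side of the threshold, 30 lost a call and 7 gained one. In H446 cells, with no test, 132 of 135 moved by less than the spread of the replicates and 3 by more. Leaving aside values that rounded to 0, the sign changed in 6 cases, all uncalled in BEAS-2B cells. They were TYMS at 0.03 without 10 Gy replicate 3, TK1 at -0.05 with the GC trend removed and -0.04 without 10 Gy replicate 2, and DCTPP1 at -0.06 under both of these and at -0.08 without control replicate 2. RRM2, TYMS, DUT, UNG and SAMHD1 in A549 cells kept their calls throughout, with log2 differences of -0.45 to -0.39, 0.41 to 0.47, -0.60 to -0.49, -0.49 to -0.39 and 0.30 to 0.44. DCTPP1 there had an adjusted p of 0.118 with no filter. For UNG in H446 cells the range was -1.48 to -1.34.

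The pathway genes called in BEAS-2B cells, 0 as reported, numbered 5 with all 18 libraries in 1 fit (3 higher and 2 lower) and 3 without 10 Gy replicate 2. At an adjusted p under 0.01, 2 of the 9 genes differed in response between A549 and BEAS-2B cells in place of 4. With each library left out in turn, the genes called among the 9 numbered 0 in BEAS-2B cells, 5 to 7 in A549 cells, 3 to 6 for the difference in response and 9 between the controls, and the H446 median was -0.33 to -0.28. The pathway genes called numbered 0 to 3 in BEAS-2B, 39 to 44 in A549 and, as a description, 36 to 48 in H446 cells. Over all genes called in H446 cells, 1698 were higher and 2709 lower, but 2171 and 2183 under quantile normalization and 1817 and 1706 with the GC trend removed. In BEAS-2B cells 0 genes were called as reported, 10 with no filter, 861 with all 18 libraries in 1 fit and 233 without 10 Gy replicate 2. The causes were not tested.

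The labels do not say whether the replicate numbers pair the libraries. The correlation of same-numbered deviations was -0.13, 0.32 and 0.31 in BEAS-2B, 0.19, 0.01 and 0.08 in H446 and 0.01, -0.05 and -0.10 in A549 cells. Differently numbered libraries had -0.50 to 0.38 in BEAS-2B, -0.18 to 0.11 in H446 and -0.03 to 0.08 in A549 cells. In BEAS-2B cells these values do not settle whether the numbers pair the libraries. With the replicate number as a block, 4 pathway genes (RRM2B, SLC29A1, APOBEC3C and E2F7) and 439 genes in all were called in BEAS-2B cells, 6 of the 9 genes in A549 cells (49.2% of all genes) and 3 for the difference in response (3557 of 12717 genes in all). The depth is unknown, and 3 libraries per group limit the precision.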
